A study of Mus musculus with 2 samples.

Results

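The 38 genes described here encode lysosomal membrane proteins, lysosomal hydrolases and their regulators. They were taken by name from the deposited gene tables, in which all 38 were found among 43346 Ensembl genes. By role they comprise 10 membrane proteins, 10 cathepsins and other proteases, 10 glycosidases, 6 lipid enzymes and lipid carriers, and 2 regulators. The cells were mouse megakaryocytes, the large blood cells that shed platelets. The labels give them as primary cells from embryos at 14.5 days with both sexes pooled, and polyadenylated RNA was sequenced in paired end mode. There are 2 libraries of 1 group, biological replicates 2 and 1, with no treatment, genotype or second condition named. The labels cite 1 biosample and 1 donor for both, and whether differences between the libraries are technical or biological was not tested.

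Lysosomes are acidic compartments that break down proteins, glycans and lipids delivered by endocytosis and autophagy. Their membrane is lined by glycosylated proteins and carries channels and transporters, while soluble hydrolases reach the lumen by way of sorting receptors. Many of these genes carry a palindromic promoter element bound by TFEB and related factors. Platelets also hold lysosomal granules, which they inherit from megakaryocytes.

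Depth differed 18.5-fold between the libraries, with 2275922 expected counts (estimated fragments per gene) in replicate 2 and 42099216 in replicate 1. Where no count was seen, up to 3 remain possible, which in CPM, counts scaled to the library total, is 1.32 for replicate 2 and 0.0713 for replicate 1. Megakaryocyte markers were present in both: all 12 of 12 listed genes reached 1 TPM in each library, with Pf4 at 633 and 2932 TPM, Itga2b at 3388 and 4430 and Gp9 at 6744 and 2675 in replicates 2 and 1. With 1 group and 2 libraries no test between conditions exists. Levels are deposited TPM, which are per length, and ratios are of expected counts in replicate 2 over replicate 1 after TMM scaling. Brackets after a ratio hold an exact 95% Clopper-Pearson interval, which covers counting error only, as do all intervals and floors here.

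Averaged over the libraries, 36 of the 38 genes stood at 1 TPM or more, or 94.7%, against 42.5% of 21474 protein coding genes. The exceptions were Gla and Lipa. In replicate 2 the level of 1 TPM was reached by 32 genes, and Ctsh, Ctsl and Ppt1 had 0 counts. In replicate 1 all 38 reached it. Of the 21474 protein coding genes 8092 reached it in replicate 2 and 9362 in replicate 1. The median gene of the 38 had 10.45 TPM in replicate 2, against 31.6 TPM in replicate 1. The order of levels was similar in the libraries (Pearson r of log2(TPM + 1) 0.881 and Spearman rho 0.849 across the 38 genes, against r of 0.816 across 9858 detected genes), a description across genes that share 2 libraries. Of the 10 highest genes in each library, 9 were shared. Neighbours in that order were less well separated: of 37 pairs adjacent by mean TPM, 9 stood in the same order in both libraries.

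**Figure D1:**
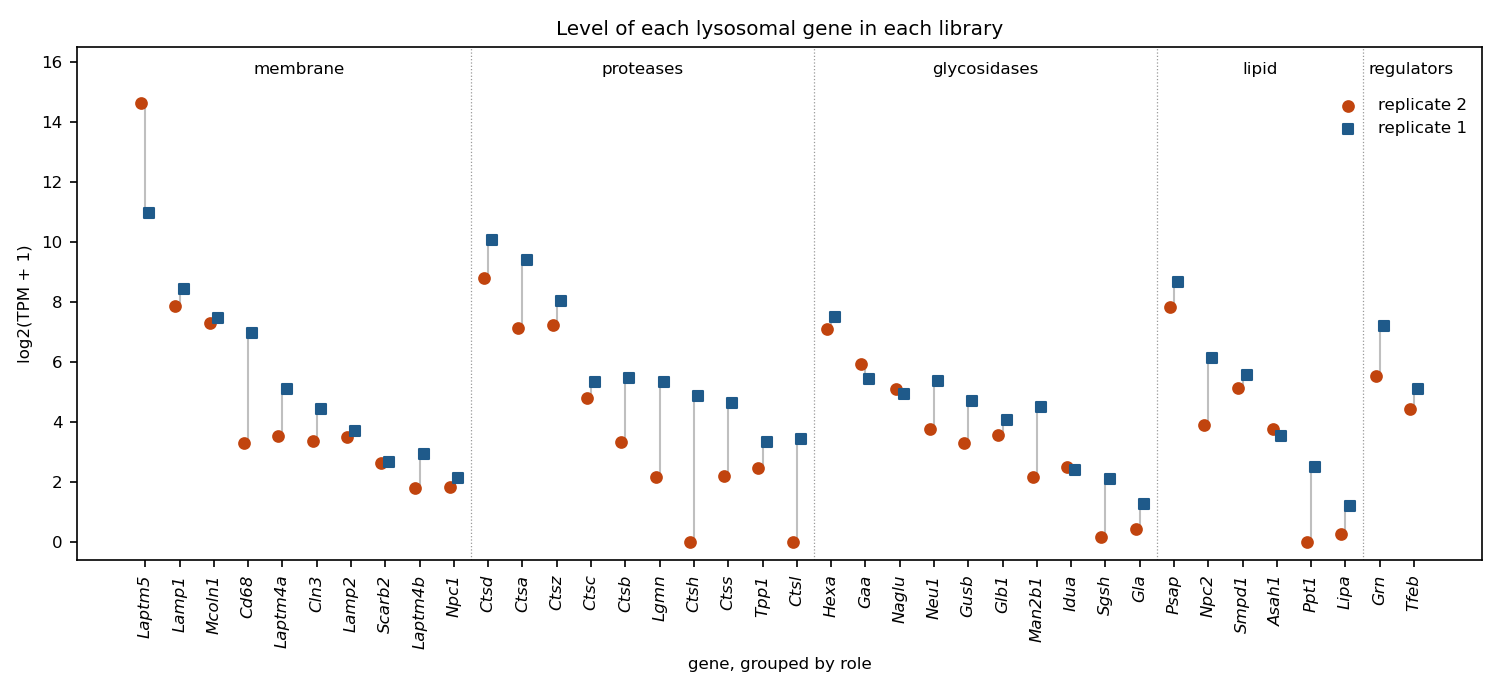
Level of each of the 38 lysosomal genes as log2(TPM + 1) in replicate 2 (orange circles) and replicate 1 (blue squares), grouped by role and sorted by mean TPM, with a grey line joining the libraries. Laptm5 stands above all others in both libraries and lies higher in replicate 2 (25309 TPM, against 2001 TPM in replicate 1). By TPM 33 of 38 genes lie lower in replicate 2. The ratio of TMM-scaled counts was under 1 for 29 of the 36 genes averaging 100 counts or more, against 58% of all genes.

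Laptm5 was the most abundant lysosomal gene by a wide margin. It encodes a lysosomal membrane protein of blood cells that is known for routing antigen receptors of lymphocytes to degradation. The gene (ENSMUSG00000028581.13) lies on chr4:130913125-130936141, plus strand, GRCm38. It had 25309 TPM from 115292 counts in replicate 2, against 2001 TPM from 193206 counts in replicate 1, a mean of 13655 ± 16481 TPM (SD, n = 2). The SD exceeded the mean, so the libraries gave no common level. By TPM it ranked 2 among all genes in replicate 2 and 79 in replicate 1. It took 5.07% (5.04 to 5.09, exact Clopper-Pearson) of all counts in replicate 2 and 0.459% (0.457 to 0.461) in replicate 1.

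After TMM scaling the Laptm5 count was 14.96-fold higher in replicate 2 [14.8 to 15.1], which ranked 7 among 8194 genes averaging 100 counts or more and 4 among the 7916 protein coding genes of these. The deposited TPM differed 12.6-fold. The deposited posterior mean TPM was 17937 in replicate 2 and 1963 in replicate 1, a 9.14-fold difference. The summed TPM of the other 37 genes was 1844 in replicate 2 and 3990 in replicate 1, so Laptm5 was 13.7 times that sum in replicate 2 and 0.501 times it in replicate 1.

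Nearly all Laptm5 counts belonged to 1 of its 10 transcript models. Laptm5-207, a coding transcript of 2600 bases in 8 exons, held 115291 counts in replicate 2 and 193182 in replicate 1, which is 99.99% of the gene's TPM in replicate 2 and 99.88% in replicate 1. Laptm5-206, a non-coding model, had 1 count in replicate 2 and 19.03 in replicate 1. The same transcript thus carried the gene in both libraries. Its first coding exon, chr4:130913348-130913434 on the plus strand of GRCm38, is shown because it starts the reading frame of the transcript that holds these counts, with the start codon in capitals.
Laptm5-207: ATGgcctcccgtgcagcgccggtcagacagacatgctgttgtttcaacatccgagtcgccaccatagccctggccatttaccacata

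Among the other membrane proteins Lamp1 was highest. Lamp1 and Lamp2 are heavily glycosylated proteins that line the lysosomal membrane, and Lamp2 also serves autophagy. Lamp1 (chr8:13159161-13175338, plus strand) had 231 TPM from 906 counts in replicate 2, against 341 TPM from 28359 counts in replicate 1, a mean of 286 ± 77.6 TPM and a ratio of 0.801 [0.749 to 0.856]. Lamp2 was much lower, at 10.3 TPM in replicate 2 and 12.05 in replicate 1, with a ratio of 1.34 [0.959 to 1.82] from 43 counts in replicate 2 and 807 in replicate 1. Both were within 2-fold between the libraries, and the interval of Lamp2 included 1. The ratio of Lamp2 depended on the scaling, at 3.79 with a GC trend removed and a log2 ratio of -0.02, against 0.42 with TMM, when scaled to total counts.

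The deposited level of Mcoln1, a cation channel that releases calcium from lysosomes, was 156 TPM in replicate 2, against 176 TPM in replicate 1. That level rests on a short model. Mcoln1-204, 363 bases long, held 99.3% of the gene's TPM in replicate 2 and 95.8% in replicate 1, from 62 counts in replicate 2 and 1507 in replicate 1. Divided by the length of the longest coding transcript instead, the gene stood at 18.5 TPM in replicate 2, against 25.9 TPM in replicate 1. Its count ratio, which uses no length, was 0.844 [0.650 to 1.08], and 1.48 with a length trend removed.

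Cd68, a relative of the Lamp proteins that is abundant in macrophages, differed most among the membrane proteins that were lower in replicate 2. It had 8.95 TPM from 18 counts in replicate 2, against 123 TPM from 4632 counts in replicate 1, a ratio of 0.0974 [0.0577 to 0.154]. The Laptm5 relative Laptm4a had 10.6 TPM in replicate 2, against 33.5 TPM in replicate 1, and Laptm4b had 2.46 TPM in replicate 2, against 6.58 TPM in replicate 1. Both ratios were more than 2-fold lower in replicate 2, at 0.373 [0.254 to 0.528] for Laptm4a and 0.441 [0.189 to 0.876] for Laptm4b. Both intervals reached within 2-fold, from 32 counts of Laptm4a and 8 of Laptm4b in replicate 2. The 3 Laptm genes therefore differed between the libraries in opposite directions, Laptm5 being higher in replicate 2. Cln3, the gene mutated in juvenile ceroid lipofuscinosis, had 9.23 TPM in replicate 2 and 20.5 in replicate 1. Scarb2, which carries glucocerebrosidase to lysosomes, had 5.21 TPM in replicate 2 and 5.36 in replicate 1. Npc1, a cholesterol transporter, had 2.59 TPM in replicate 2 and 3.34 in replicate 1. The intervals of these 3 ratios included 1, and the ratios of Scarb2 and Npc1 changed side with the scaling (Scarb2 to a log2 ratio of -0.24 with total counts, Npc1 to a ratio of 1.05 with a GC trend removed).

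All 10 cathepsins and other proteases had a ratio under 1, against 58% of all genes, and 6 were at least 2-fold lower in replicate 2, against 33.8% of all genes. With a GC trend removed Ctsc was the exception, at 1.25, while Ctsd (0.442) and Ctsz (0.409) passed 2-fold. Ctsd, an aspartic protease, was the highest hydrolase. It lies on chr7:142375911-142388038, minus strand, and had 446 TPM from 1501 counts in replicate 2, against 1070 TPM from 69296 counts in replicate 1, with a ratio of 0.543 [0.516 to 0.571], just within 2-fold. Ctsz, a carboxypeptidase of the cysteine class, had 149 TPM in replicate 2, against 259 TPM in replicate 1, a ratio of 0.677 [0.608 to 0.752]. Ctsa, a serine carboxypeptidase that also protects the enzymes Glb1 and Neu1, had 138.5 TPM in replicate 2, against 668.5 TPM in replicate 1, a ratio of 0.25 [0.217 to 0.286]. These 3 genes held most of the protease TPM: Ctsd 57.1% in replicate 2 and 48.9% in replicate 1, Ctsa 17.7% in replicate 2 and 30.5% in replicate 1, and Ctsz 19.1% in replicate 2 and 11.8% in replicate 1.

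The endosomal cysteine proteases were low in replicate 2. Ctsb had 9.03 TPM from 77 counts in replicate 2, against 43.1 TPM from 7778 counts in replicate 1, a ratio of 0.248 [0.196 to 0.311]. Lgmn, the asparaginyl endopeptidase legumain, had 3.51 TPM from 12 counts in replicate 2, against 39.1 TPM from 2822 counts in replicate 1, a ratio of 0.107 [0.0550 to 0.186]. Ctss, which trims the invariant chain of class II molecules, had 3.57 TPM in replicate 2, against 23.8 TPM in replicate 1, a ratio of 0.176 [0.0758 to 0.348], and 0.282 with a GC trend removed. Ctsh and Ctsl were listed at 0 in replicate 2, against 756 and 710 counts (27.9 and 9.86 TPM) in replicate 1. Set against a floor of 3 counts Ctsh was at least 10.1-fold lower in replicate 2, and Ctsl at least 9.44-fold lower. Ctsc, which activates serine proteases of granules, had 26.55 TPM in replicate 2 and 39.3 in replicate 1. Tpp1, a tripeptidyl peptidase, had 4.50 TPM in replicate 2, against 9.06 TPM in replicate 1, and the ratios of Ctsc and Tpp1 were 0.570 [0.363 to 0.852] and 0.588 [0.389 to 0.854].

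Markers of other blood cells differed between the libraries beside these proteases. As a background, 8092 of 21474 protein coding genes reached 1 TPM in replicate 2 and 9362 in replicate 1. Of 16 macrophage genes 7 reached 1 TPM in replicate 2 and 12 in replicate 1, with a summed TPM of 238 in replicate 2 and 927 in replicate 1. All 11 that averaged 100 counts or more were lower by 2-fold or more in replicate 2, against 33.8% of all genes. At the depth of replicate 1 that minimum is met mostly through replicate 1, so it favours genes that are high there. Among the defining markers Csf1r had 2.96 and 48.55 TPM, Adgre1 0.18 and 4.83, C1qa 13.3 and 129, and C1qb 58.95 and 192 in replicates 2 and 1, while Cd163 was at 0 in both. Of 12 granulocyte genes 4 reached 1 TPM in replicate 2 and 10 in replicate 1, with a summed TPM of 150 in replicate 2 and 863 in replicate 1. Mpo had 31.7 and 288 TPM, Elane 6.27 and 24.2, and S100a8 0 and 3.87 in replicates 2 and 1, while Ly6g was at 0 in both. The part of these cells in the ratios of Cd68 and the proteases was not tested. In bulk RNA fewer cells of a type and less RNA per cell cannot be told apart. Of 10 erythroid genes 8 reached 1 TPM in each library, and the sum, most of it globin, was 15963 TPM in replicate 2, against 9590 TPM in replicate 1.

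**Figure D2:**
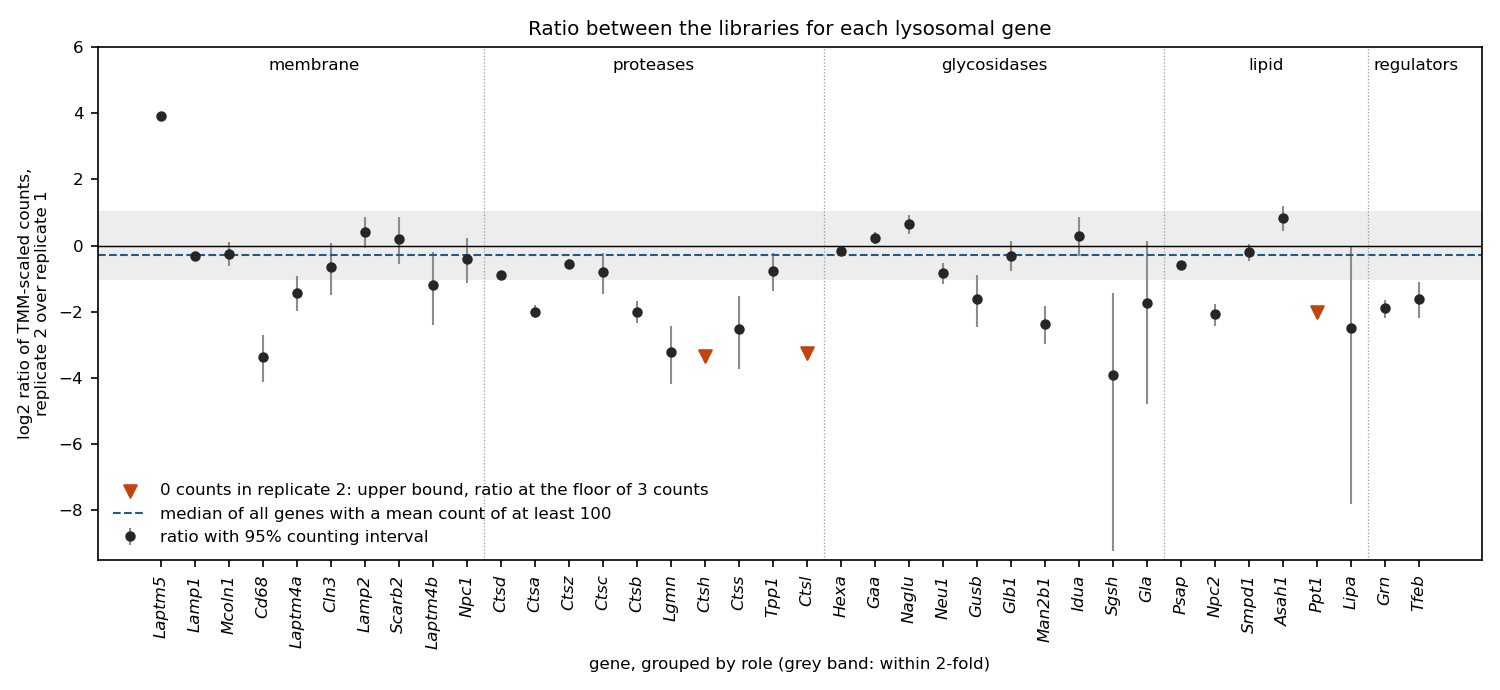
Ratio of TMM-scaled expected counts in replicate 2 over replicate 1 on a log2 axis for the 38 genes by role, with exact 95% counting intervals as bars and a grey band for values within 2-fold. The dashed line marks the median of all genes at -0.30. Laptm5 lies at 3.90 and all proteases lie under 0. Triangles mark Ctsh, Ctsl and Ppt1, which had 0 counts in replicate 2, at the ratio given by a floor of 3 counts.

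The glycosidases were the role group nearest to equality. Their summed TPM was 272 in replicate 2 and 364 in replicate 1, and the ratio of their summed counts was 0.828, against 0.466 for the proteases. Hexa, the alpha subunit of the enzyme missing in Tay-Sachs disease, had 138 TPM from 439 counts in replicate 2, against 181 TPM from 12293 counts in replicate 1, a ratio of 0.895 [0.812 to 0.985]. It held 50.6% of the glycosidase TPM in replicate 2 and 49.8% in replicate 1. Gaa, which degrades glycogen, had 59.8 TPM in replicate 2, against 42.5 TPM in replicate 1, a ratio of 1.18 [1.04 to 1.34]. Naglu, an enzyme of heparan sulfate breakdown, had 33.6 TPM in replicate 2, against 29.65 TPM in replicate 1, a ratio of 1.56 [1.26 to 1.90]. The intervals of Gaa and Naglu lay above 1, but their direction depended on the scaling. With a GC trend removed the ratios were 0.585 for Gaa and 0.769 for Naglu, and scaled to total counts Gaa had a log2 ratio of -0.20.

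Other enzymes of heparan sulfate breakdown were scarcer. Idua had 4.61 TPM in replicate 2 and 4.22 in replicate 1, with a ratio of 1.23 [0.796 to 1.82], which was 0.940 with a GC trend removed and a log2 ratio of -0.14 with total counts. Sgsh had 0.13 TPM from 1 count in replicate 2, against 3.29 TPM from 379 counts in replicate 1, a ratio of 0.0661 with an interval of 0.00167 to 0.371. The sialidase Neu1 had 12.7 TPM in replicate 2, against 39.9 TPM in replicate 1, a ratio of 0.561 [0.445 to 0.698], which passed 2-fold with a GC trend removed (0.457). The beta-galactosidase Glb1 had 10.7 TPM in replicate 2, against 15.7 TPM in replicate 1, a ratio of 0.808 [0.589 to 1.09]. Gusb, the beta-glucuronidase, had 8.91 TPM in replicate 2, against 24.7 TPM in replicate 1, and Man2b1, an alpha-mannosidase, had 3.48 TPM in replicate 2, against 21.4 TPM in replicate 1. Both ratios were more than 2-fold lower in replicate 2, at 0.324 [0.181 to 0.537] for Gusb and 0.193 [0.127 to 0.281] for Man2b1. The interval of Gusb, from 15 counts in replicate 2, reached within 2-fold. Gla, the alpha-galactosidase missing in Fabry disease, had 0.36 TPM from 2 counts in replicate 2, against 1.40 TPM from 167 counts in replicate 1, and its ratio of 0.300 [0.0361 to 1.10] could not be told from 1 at this depth.

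Among the lipid enzymes and carriers Psap predominated. Psap encodes prosaposin, the precursor of the saposins that present sphingolipids to their hydrolases. It lies on chr10:60277627-60302597, plus strand, and had 226 TPM from 1049 counts in replicate 2, against 402 TPM from 39603 counts in replicate 1, a ratio of 0.664 [0.624 to 0.706]. That was 78.8% of the TPM of its role group in replicate 2 and 75.2% in replicate 1. Smpd1, the acid sphingomyelinase, had 34.25 TPM in replicate 2, against 46.6 TPM in replicate 1, a ratio of 0.868 [0.730 to 1.02]. Asah1, the acid ceramidase, had 12.7 TPM in replicate 2, against 10.6 TPM in replicate 1. Its ratio was 1.77 [1.35 to 2.29], so Asah1 was the gene with the highest ratio after Laptm5, and it was 4.29 with a GC trend removed. Npc2, the luminal partner of Npc1 in cholesterol export, was more than 2-fold lower in replicate 2, with 13.8 TPM in replicate 2, against 69.2 TPM in replicate 1, and a ratio of 0.236 [0.187 to 0.295]. Ppt1, a thioesterase that removes palmitate from proteins, had 0 counts in replicate 2 and 304 counts (4.72 TPM) in replicate 1, at least 4.04-fold lower. The acid lipase Lipa had 0.19 TPM from 1 count in replicate 2, against 1.28 TPM from 142 counts in replicate 1, a ratio of 0.177 [0.00444 to 0.999], and 0.387 with a GC trend removed.

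Both regulators were more than 2-fold lower in replicate 2. Grn encodes progranulin, a secreted and lysosomal protein whose loss causes ceroid lipofuscinosis. It lies on chr11:102430315-102437048, plus strand, and had 45.65 TPM from 115 counts in replicate 2, against 146 TPM from 10747 counts in replicate 1, a ratio of 0.268 [0.221 to 0.322]. Tfeb, a transcription factor for lysosomal genes, lies on chr17:47737030-47792419, plus strand. It had 20.5 TPM from 31 counts in replicate 2, against 33.6 TPM from 2378 counts in replicate 1, a ratio of 0.327 [0.222 to 0.465], and 0.145 with a GC trend removed. A model of 349 bases, Tfeb-208, held 68.6% of the TPM in replicate 2 from 5 counts. Divided by the length of the longest coding transcript instead, Tfeb stood at 7.60 TPM in replicate 2, against 27.5 TPM in replicate 1. Its relative Tfe3 was at a similar level in both libraries (18.2 TPM in replicate 2 and 17.1 in replicate 1), while Mitf and Tfec had 0 counts in replicate 2 and 2.00 and 1.07 TPM in replicate 1.

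Over the list, 36 of the 38 genes averaged 100 counts or more, all but Gla and Lipa. Of these 1 (2.78%) was at least 2-fold higher in replicate 2, against 15.7% of all genes. A further 16 (44.4%) were at least 2-fold lower, against 33.8% of all genes, and 19 were within 2-fold. A ratio under 1 was found for 29 (80.6%), against 58% of all genes. The median log2 ratio was -0.82 for the 36 and -0.30 for all 8194 genes. At least 2-fold lower were 3 of 10 membrane proteins, 6 of 10 proteases, 3 of 9 glycosidases, 2 of 5 lipid enzymes and 2 of 2 regulators. The minimum of 100 counts is met mostly through the deeper replicate 1, so it favours genes that are lower in replicate 2. With a mean of at least 50 CPM, which weighs the libraries equally, 5 of 14 lysosomal genes were at least 2-fold lower, against 15.8% of all genes. The median log2 ratios were then -0.71 and 0.37. Across 33 of the genes with counts in both libraries the log2 ratio had a Spearman correlation of 0.0013 with GC content, and across 7807 genes 0.294, as descriptions across genes.

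Summed over all 38 genes the level was 27153 TPM in replicate 2, against 5991 TPM in replicate 1 (16572 ± 14964, SD, n = 2). Without Laptm5 the direction was the other way, at 1844 TPM in replicate 2, against 3990 TPM in replicate 1. Likewise the membrane proteins without Laptm5 summed to 437 and 721 TPM, the proteases to 781 and 2190 TPM, the lipid enzymes to 287 and 534.5 TPM and the regulators to 66.2 and 180 TPM in replicates 2 and 1. The sum over the list thus followed 1 gene.

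**Figure D3:**
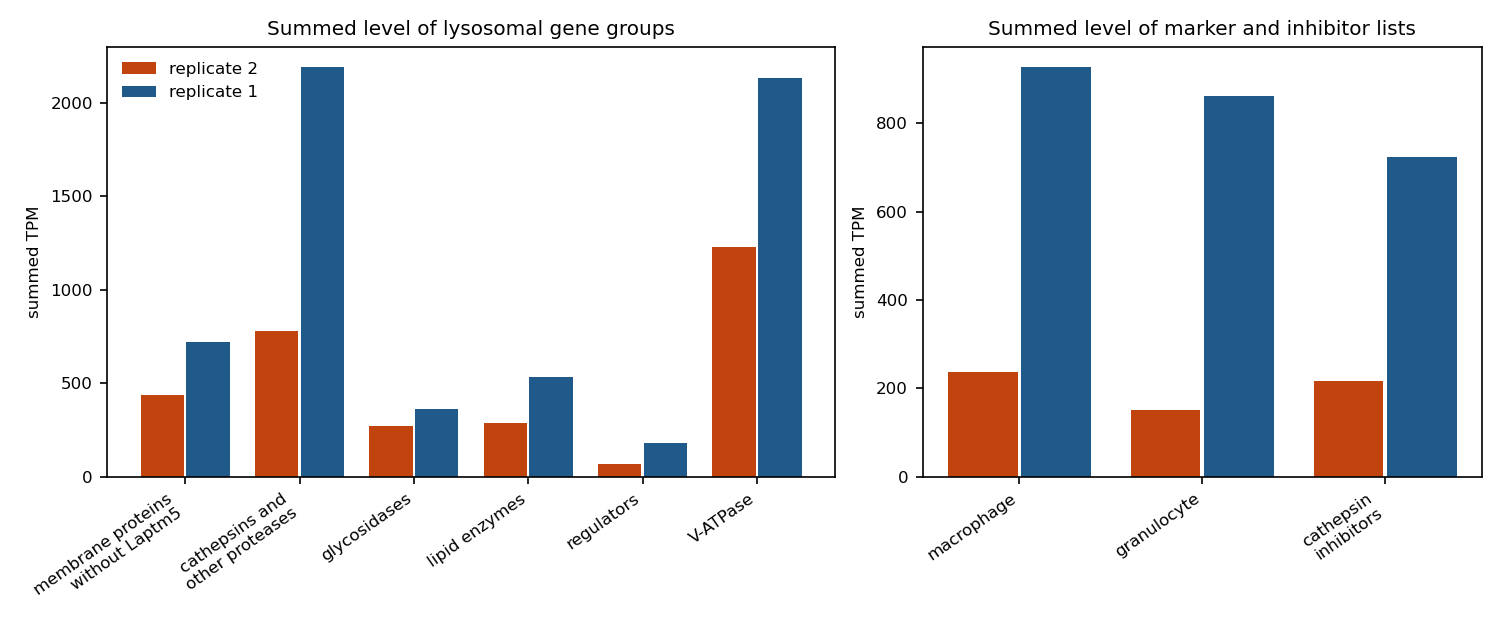
Summed TPM of the lysosomal role groups without Laptm5 and of the proton pump (left), and of macrophage, granulocyte and cathepsin inhibitor genes (right), with replicate 2 in orange and replicate 1 in blue. Every sum shown is lower in replicate 2, least so for the glycosidases (272 TPM in replicate 2 and 364 in replicate 1) and most so for the granulocyte genes (150 in replicate 2 and 863 in replicate 1).

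A further 79 lysosome genes outside the list were examined. The 65 that averaged 100 counts or more had a median log2 ratio of -0.44, and 23 of them (35.4%) were at least 2-fold lower in replicate 2 and 6 (9.23%) at least 2-fold higher. Over all genes 33.8% were lower and 15.7% higher by that rule, so the share of lower calls was near the background. The same background holds for the counts of the smaller lists that follow. The proton pump that acidifies the lumen was well expressed, with all 17 genes at a mean of at least 1 TPM and a sum of 1227 TPM in replicate 2, against 2133 TPM in replicate 1. Its highest members were Atp6v0c (289 and 708 TPM), Atp6v0b (407 and 472 TPM) and Atp6v1f (184 and 371 TPM), and the lowest was Atp6ap2 (0.99 and 1.05 TPM), in replicates 2 and 1. Of 16 pump genes at that count 7 were at least 2-fold lower and 1 was higher. Further hydrolases summed to 280 TPM in replicate 2 and 283 in replicate 1, led by Arsa, Man2b2 and Pla2g15, with 3 of 15 at least 2-fold lower and 1 higher, and Ctsw and Ctsk were at 0 in both libraries.

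Sorting genes were higher in replicate 2 as a sum, at 564 TPM against 349 TPM in replicate 1. That sum was led by Gga1, an adaptor that collects hydrolase receptors at the Golgi, at 370 TPM in replicate 2 and 189 in replicate 1. Of 9 sorting genes 2 were at least 2-fold higher and 2 lower, and Gnptab was lowest. Further membrane genes, led by Tpcn1, Cd63 and Sidt2, had 2 of 11 higher and 4 lower. Nutrient sensing genes, led by Lamtor1, Lamtor4 and Rraga, had 0 of 11 higher and 4 lower. The cathepsin inhibitors followed the proteases in direction: Cst3 had 205 and 612 TPM and Cstb 8.35 and 98.3 TPM in replicates 2 and 1, Cst7 came next, all 3 were at least 2-fold lower, and Stfa1 was at 0.

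The transcript tables show which models stand behind the gene levels. Of the 38 genes 13 had 1 transcript model. Of 23 with several models and counts in both libraries, 14 had the same dominant transcript and 9 another (Cd68, Npc1, Cln3, Ctsd, Ctss, Neu1, Sgsh, Grn and Tfeb). For Ctsd the dominant form was Ctsd-201 in replicate 2 (70.7% of TPM) and Ctsd-202 in replicate 1 (73.5%), both coding. For Neu1 it was a model with a retained intron in replicate 2 (100% of TPM, 82 counts) and the coding Neu1-201 in replicate 1 (99.5%). For Cd68 all 18 counts of replicate 2 were assigned to the longest coding form, while a shorter coding form held 59.9% of TPM in replicate 1. These assignments are the authors' estimates, and few counts stand behind the dominant form in replicate 2 for all of these but Ctsd. That form had 1020 counts for Ctsd, 82 for Neu1, 70 for Grn and 18 for Cd68. It had 17 for Npc1, 13 for Cln3, 8 for Ctss, 5 for Tfeb and 1 for Sgsh.

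As a mean over both libraries, the deposited level of 6 genes was at least 2-fold above their level by the longest coding transcript. These were Mcoln1 (7.48-fold), Ctsc (5.07-fold), Ctsa (4.27-fold), Cln3 (3.95-fold), Gusb (2.28-fold) and Ctsh (2.14-fold). For Ctsa a retained intron model of 436 bases, Ctsa-212, held 71.7% of TPM in replicate 2 and 75.9% in replicate 1 from 53 counts in replicate 2 and 5991 in replicate 1. By the longest coding transcript Ctsa stood at 32.9 TPM in replicate 2, against 156 TPM in replicate 1. Laptm5 stayed at 25307 TPM in replicate 2 and 1999 in replicate 1. Retained intron models held 7.73% of the TPM of the genes other than Laptm5 in replicate 2 and 14.0% in replicate 1, against 12.8% in replicate 2 and 13.2% in replicate 1 over protein coding genes other than Laptm5.

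**Figure D4:**
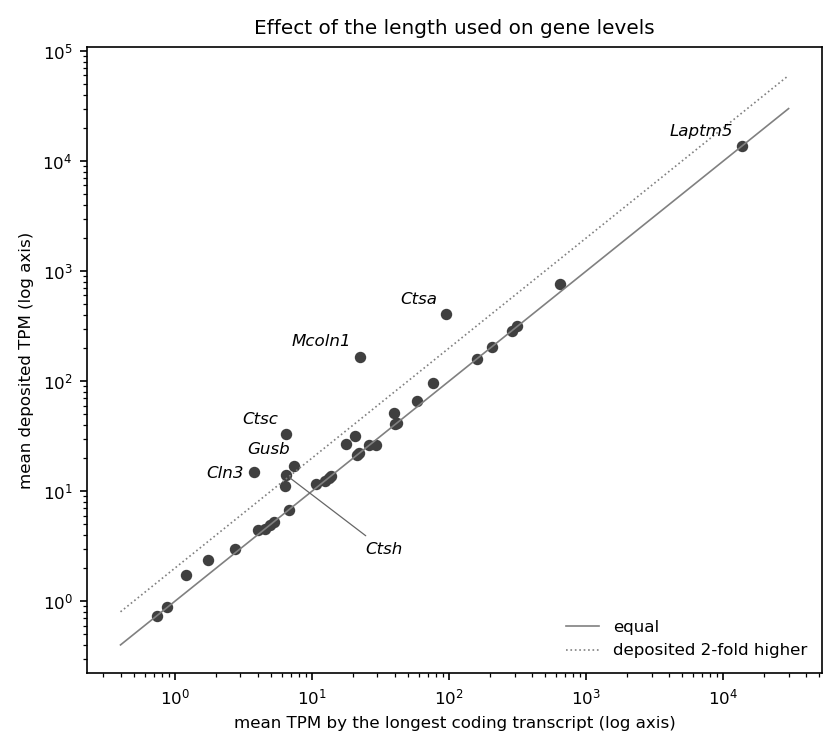
Mean deposited TPM over both libraries against mean TPM recomputed with the length of the longest coding transcript, both on log axes, 1 point per lysosomal gene. Most points lie on the line of equality, Laptm5 included, and the other 6 labelled genes from Ctsh (2.14-fold) to Mcoln1 (7.48-fold) lie above the 2-fold line.

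Promoter sequences from RefSeq (GRCm38.p6, 250 bases before to 50 after each start) were matched for 33 of the 38 genes, all but Laptm4b, Npc1, Ctsb, Ctsh and Asah1. The letters CACGTG, the core of the element that TFEB binds and its own reverse complement, were found for 12 of the 33 (36.4%), against 8.09% of 27025 genes. The longer palindrome TCACGTGA, which contains that core, was found for 5 (15.2%), against 1.12% of genes. The windows below hold the sites of the 5 genes with the palindrome and the 4 cores of Lamp1, and capitals mark CACGTG. They are given on the strand of the gene, and for Ctsd only the site of the palindrome is shown.
Cln3, chr7:126583341-126583396, minus strand: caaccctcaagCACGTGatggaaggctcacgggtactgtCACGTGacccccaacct
Ctsa, chr2:164833750-164833794, plus strand: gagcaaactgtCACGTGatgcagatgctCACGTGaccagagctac
Ctsd, chr7:142387909-142387936, minus strand: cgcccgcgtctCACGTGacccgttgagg
Gla, chrX:134601183-134601243, minus strand: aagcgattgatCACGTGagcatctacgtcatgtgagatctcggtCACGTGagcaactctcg
Lamp1, chr8:13159089-13159162, plus strand: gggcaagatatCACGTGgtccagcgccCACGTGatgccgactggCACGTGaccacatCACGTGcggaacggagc
Mcoln1, chr8:3500437-3500490, plus strand: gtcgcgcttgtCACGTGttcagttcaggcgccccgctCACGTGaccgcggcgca

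The core was also found for Ctsl, Gaa, Glb1, Lgmn, Naglu and Sgsh. The Laptm5 window held none, which says only that these letters are not in that window. Genes with the core ran from Gla at a mean of 0.88 TPM to Ctsd at 758 TPM, with a median of 26.5 TPM. Genes without it ran from Lipa at 0.735 TPM to Laptm5 at 13655 TPM, with a median of 26.3 TPM. At least 2-fold lower in replicate 2 were 4 of 11 genes with the core and 9 of 20 without it, against 33.8% of all genes. The share with the core was near that of all genes. Levels and ratios of the genes with and without the core thus overlapped over most of their range.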

How the data were processed

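Polyadenylated RNA of mouse megakaryocytes was measured in 2 libraries of 1 group. For each the authors deposited a gene table and a transcript table on mm10 with GENCODE M4, per the file lists. The sources used here name neither the aligner nor the quantifier. Expected counts, per the file headers, are the authors' estimated fragments per feature and need not be whole. TPM, also deposited by the authors, are divided by effective length (another deposited column, in bases) and scaled to depth, as maximum likelihood estimates and posterior means.

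Of the table rows, 43346 Ensembl genes were used, and 26248 rows with numeric identifiers, which held 0 counts in replicate 2 and 15 in replicate 1, were left out. GENCODE M21, whose assembly GRCm38 is that of mm10, gave symbols, positions, GC content and transcript names by unversioned identifier (42462 matched). Expected counts were scaled with TMM factors (0.860 in replicate 2 and 1.163 in replicate 1) from edgeR 4.0.16 in R 4.3.3, with rounded counts of genes at a mean of at least 10, and the scaling was tested on simulated data. Size factors of DESeq2 1.42.0 were an alternative. The remaining work was done with scipy 1.17.1, pandas 2.3.3 and numpy 2.4.6 under Python 3.11.15, and plots with matplotlib 3.10.9. TPM levels by the longest coding transcript divide all of a gene's counts by that 1 length.

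All 38 genes are named, and of each further list the 3 highest and the lowest members or, for cell types, the defining markers, of which 1 is not reported here. These genes and lists were chosen with earlier results of these data known. Intervals do not cover molecules copied in amplification. Strand use in the counting is not given, so reads of overlapping genes could not be told apart.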

Additional observations from a re-analysis of the deposited data

How the results depend on the processing

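The counts of genes past 2-fold between the libraries were recomputed with other scalings, count minimums and trends removed, and 9 of 10 alternatives gave 1 gene higher in replicate 2. With a GC trend removed in 20 bins there were 3, Laptm5 (11.4-fold), Asah1 (4.29-fold) and Lamp2 (3.79-fold), and 19 lower. With a mean of at least 50 CPM only 14 of the 38 genes were left, and 5 instead of 16 were at least 2-fold lower, against 15.8% of all genes lower and 26.4% higher. Scaled to total counts 23 genes were lower, against 43.5% of all genes lower and 7.31% higher. A change of scaling moves every log2 ratio by the same amount. It could not alter the gap between the median log2 ratio of the lysosomal genes and that of all genes. Those medians were -1.26 and -0.74 with total counts, -0.69 and -0.17 with DESeq2 size factors, and -0.91 and -0.39 with TMM factors from all genes. Other count minimums and removed trends could alter the gap, and the lysosomal genes stayed lower in each. The gap was narrower at a mean count of at least 10 (-0.86 and -0.55) and with no minimum count (-0.86 and -0.67). It was wider with the minimum in CPM (-0.71 and 0.37), the GC trend removed (-1.05 and -0.39) or the length trend removed (-1.03 and -0.31). Ratios of single genes were recomputed with 3 other scalings for the 35 genes with counts in both libraries. Each scaling multiplies all ratios by 1 factor, 25.1 with TMM, 18.5 with total counts, 27.4 with DESeq2 and 27.3 with upper quartile factors. All ratios thus moved alike and by less than 1.5-fold, so none past 2-fold could change direction. The 105 recomputed ratios are therefore not separate checks. Within 2-fold, Lamp2, Scarb2, Gaa and Idua turned from higher to lower with total counts. With the GC trend removed Gaa, Naglu and Idua turned to lower and Ctsc and Npc1 to higher, and with the length trend removed Gaa turned to lower and Mcoln1 to higher. The cause was not tested. Requiring the longer palindrome reduced the promoters with a site to 5, from 12. Alternatives with TMM factors from all genes, the floor for genes at 0 and the longest coding transcript were chosen after seeing the data. No paired analysis was possible because there is 1 group. Depth limits replicate 2, in which 1 count separates Sgsh and Lipa from 0.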
